A study of Gallus gallus and Dromaius novaehollandiae and Alligator mississippiensis with 60 samples.

Results

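In the developing skin of chicken embryos, 51 genes were the object of study: genes with no emu or alligator value in the deposited table whose epidermal level was highest in a foot scale. They were selected on the epidermis values described here. A gene was taken if all its emu and alligator entries were empty, if the highest of the 10 chicken epidermis group means reached 50 TPM, if the group means of log2(TPM + 1) spanned at least 2, and if the highest group was a scutate or a reticulate scale. TPM is a transcript abundance corrected for gene length and scaled to the library total. The table held 17889 genes, of which 5995 were empty in both other species, and 706 of those reached 50 TPM in some chicken epidermis group. An empty entry says only that no value was given in those columns, and the absence of an ortholog was not tested.

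The series compared feathers, scales and claws of chicken, emu and alligator embryos and asked how the appendages relate to each other. It held 60 libraries, 30 of them from chicken (Gallus gallus), with no genotype or treatment differing between groups. The 20 chicken epidermis libraries fell into 10 groups of 2 (dorsal feather tract, femoral feather tract, scutate scale, reticulate scale and claw, each at the placode and the morphogenesis stage), and the 10 dermis libraries gave each of these groups 1 library. By Hamburger and Hamilton stage, feather placodes were taken at 33 to 34, claw placodes and feather morphogenesis at 36, scutate placodes at 37, claw morphogenesis at 38, reticulate placodes at 39, and both scales in morphogenesis at 40. At either named stage the scales were older than feathers and claws, so age and appendage cannot be told apart within a named stage. By age alone, claw morphogenesis lay between scutate and reticulate placodes, but the named stages differ there. Dispase was used to part the layers. Both feather tracts of a stage came from the same embryos (specimens 17 and 14 at the placode stage, 97 and 99 in morphogenesis), and claw placode replicate 1 carries the number 99 too.

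Birds carry large overlapping plates, the scutate scales, along the shank and upper toes, and small rounded tubercles, the reticulate scales, under the foot. A placode is the local thickening of epidermis that starts an appendage, and morphogenesis is its outgrowth. When keratinocytes cornify, they fill with keratins and corneous proteins until they form a dead, hard outer layer. How far cornification had gone in these samples was not tested. Many corneous proteins of birds are encoded by clustered gene families that differ between lineages. The table gives only gene identifiers, and no name or function is assigned to any of them here.

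The selection ended with 51 genes out of the 212 empty genes that met the level and range conditions with a peak in any appendage (24.1%); 94 (44.3%) peaked in claw and 67 in feather. Among genes that had an emu or alligator value, 724 met the same conditions, and 245 of them (33.8%) peaked in a scale, 187 (25.8%) in claw and 292 in feather. The scale peak was therefore the least frequent of the 3 among the empty genes. The 51 genes peaked in scutate placode (11), reticulate placode (12), scutate morphogenesis (11) and reticulate morphogenesis (17). Their peak group means ran from 52.3 TPM over a median of 136 to 3063 TPM, and their log2 range from 2.07 over 3.22 to 9.60.

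The values that border the selection were close together. Just inside the level condition were ENSGALG00000009374 at 52.3 TPM and ENSGALG00000004011 at 57.0 TPM, and just outside it ENSGALG00000025460 at 48.2 TPM and ENSGALG00000006917 at 47.7 TPM. Just inside the range condition were ENSGALG00000008466 at 2.07 and ENSGALG00000004011 at 2.14, and just outside it ENSGALG00000002375 at 1.98 and ENSGALG00000024120 at 1.96. In the highest scale mean minus the highest feather or claw mean, ENSGALG00000021031 at 0.0044 and ENSGALG00000004747 at 0.06 (log2) stood just inside, and ENSGALG00000022843 at -0.03 and ENSGALG00000016411 at -0.04 just outside. With each epidermis library left out in turn the selection held 50 to 64 genes, and 36 of the 51 stayed in it throughout.

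**Figure D1:**
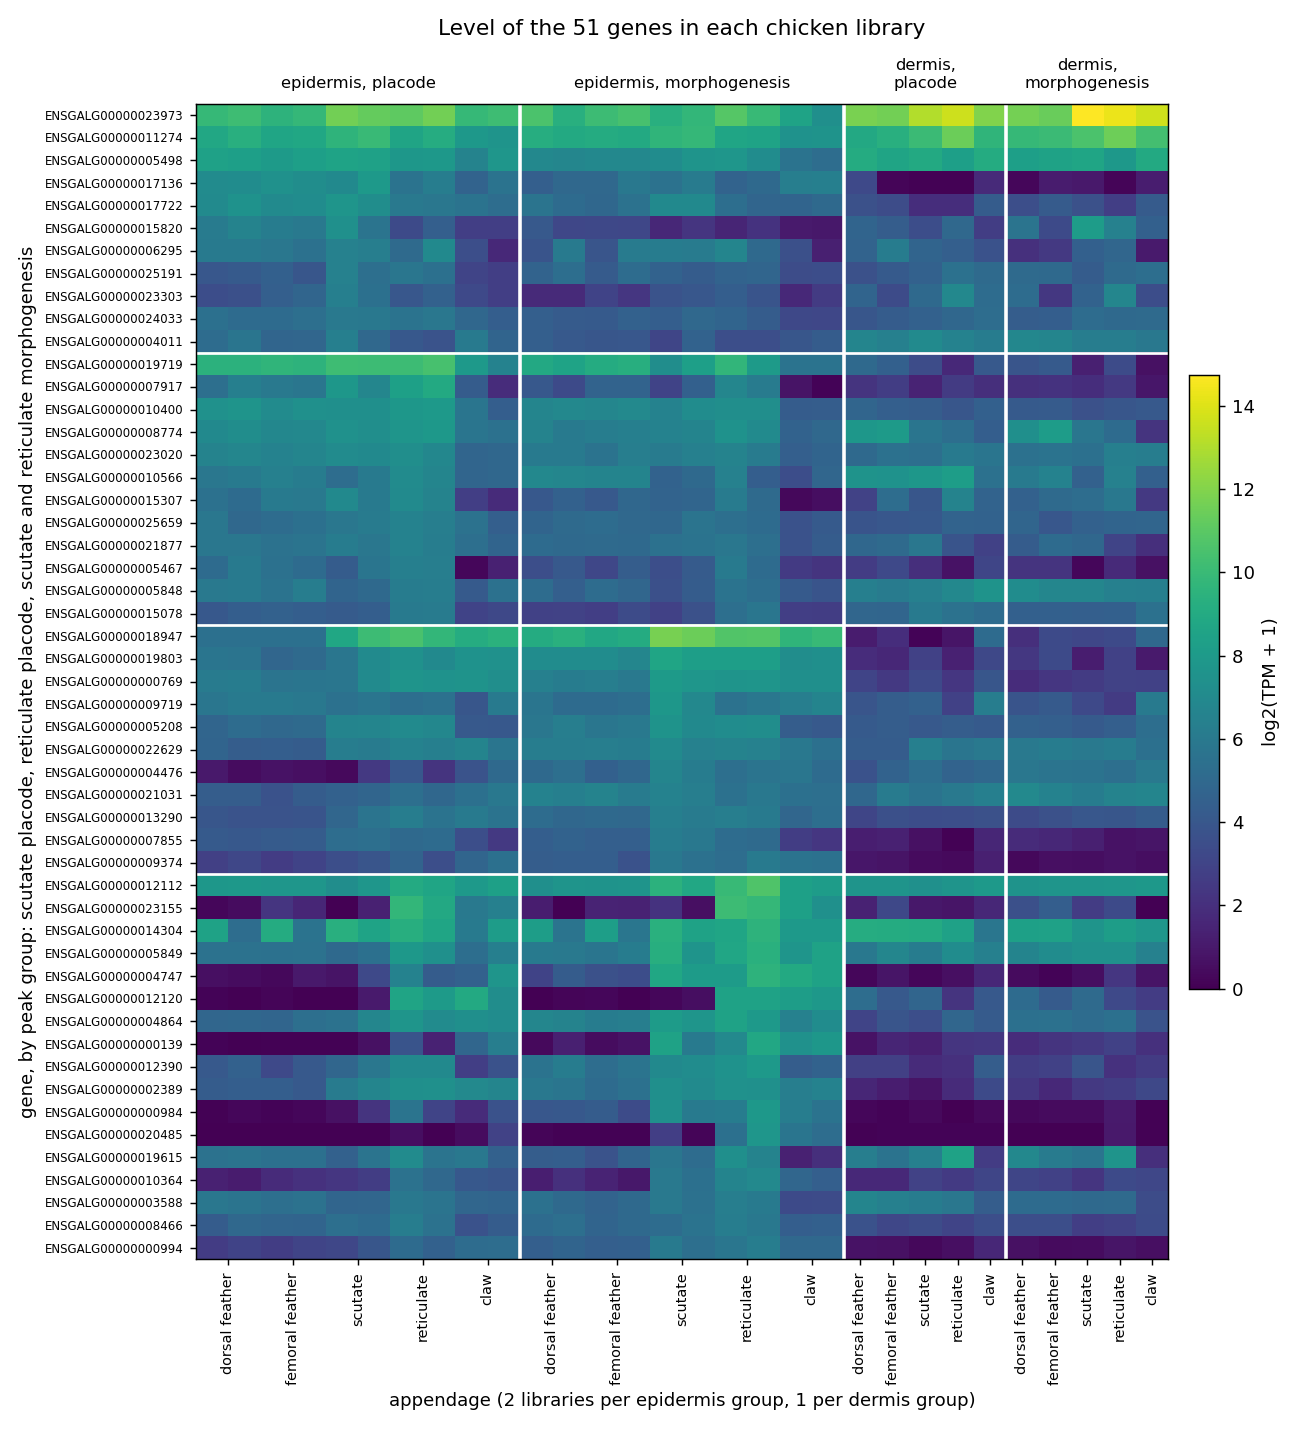
Level of each of the 51 genes in all 30 chicken libraries, as log2(TPM + 1) by colour, with genes in rows ordered by peak group and libraries in columns (2 per epidermis group, 1 per dermis group). Among the epidermis columns, 19 of the 23 genes of the upper blocks, which peak in scale placodes, are lowest in a claw group, and 20 of the 28 genes of the lower blocks, which peak in scale morphogenesis, are lowest in a feather group. The shares among other genes were not counted.

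The peak in scales stood a small step above the next appendage for many of the genes. The highest scale group exceeded the highest feather or claw group by a median of 0.76 on the log2(TPM + 1) scale, by less than 0.5 in 18 genes, by 1 or more in 15 (29.4%) and by 2 or more in 4. Those 4 were ENSGALG00000007917 (2.81), ENSGALG00000010364 (2.13), ENSGALG00000023155 (2.09) and ENSGALG00000012112 (2.05). For the 245 genes with an emu or alligator value, the median was 0.71 and 88 (35.9%) reached 1. Both libraries of the peak group lay above every feather and claw library in 36 of the 51 genes, where 14.4% of 12757 genes measured in chicken epidermis do so. The 51 were chosen by a peak in these same groups, so that share is a description of the selection.

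**Figure D2:**
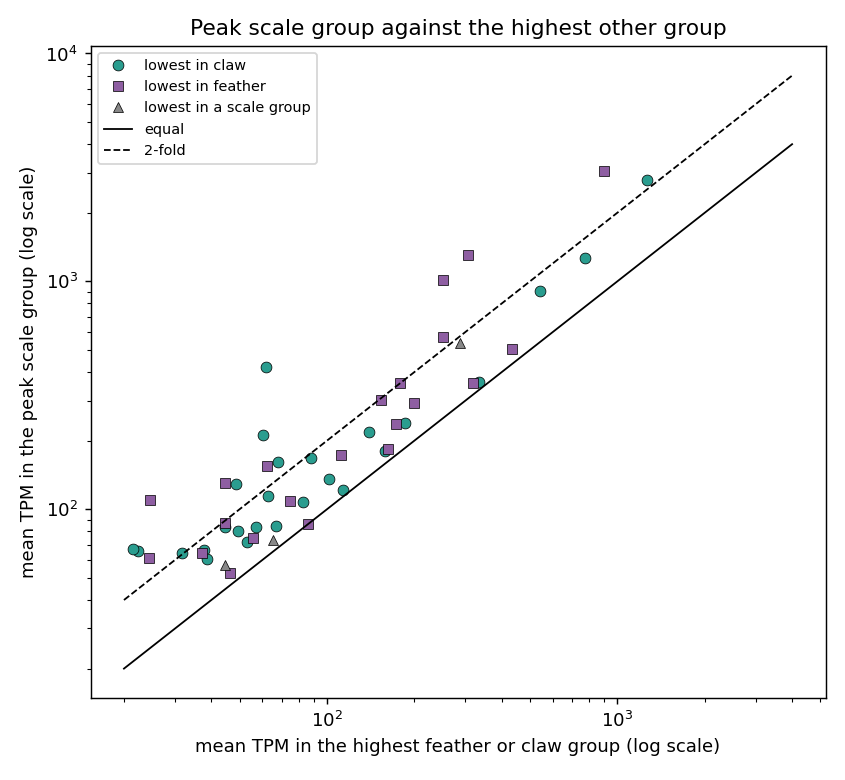
Mean TPM of the highest scale group against mean TPM of the highest feather or claw group for the 51 genes, both axes logarithmic, by the appendage with the lowest level. Most points lie between the line of equality and the 2-fold line, and 15 genes are about 2-fold or more above equality.

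The genes were sorted into 2 patterns by where they were lowest, on the same values that chose them. In 26 genes the lowest group was claw (20 in claw morphogenesis, 6 in claw placode), and 19 of these peaked at the placode stage. In 22 genes it was feather (18 of them in a feather placode group), and 20 of these peaked in morphogenesis. The remaining 3, ENSGALG00000004011, ENSGALG00000005848 and ENSGALG00000005849, were lowest in a scale group. In the first pattern the group next to the scales was feather in 25 of 26 genes, and in the second it was claw in 18 of 22. With the lowest appendage set by the sorting, this is largely given in advance, and the share among other genes was not counted. Both peak libraries exceeded every feather and claw library in 23 of the 26 genes lowest in claw and in 12 of the 22 genes lowest in feather. For these counts and for the peak stages of the 2 patterns, too, the share among other genes was not counted. Feather placodes were the youngest groups, and the part of age in the 2 patterns was not tested.

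Summed over the 51 genes, the level was 9242 to 12413 TPM in the 8 scale epidermis libraries and 4268 to 5427 TPM in the 12 feather and claw epidermis libraries, with no overlap, as the selection itself favours. In dermis the sum ran from 6208 to 31330 TPM, and ENSGALG00000023973 made up 43.7% to 57.9% of it in the 4 feather libraries and claw placode and 69.5% to 88% in the other 5. In tissue RNA of this kind, fewer cells of a type and less RNA per cell cannot be told apart.

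Across the 30 chicken libraries the column totals ran from 994044 to 999897, and 10860 to 12158 genes reached 1 TPM. TPM keeps no read depth, so counting error is unknown. No pair of chicken libraries held identical values. The layer labels could not be checked with named markers. As a description, 77 genes with dermis far above epidermis and 45 with epidermis far above dermis were taken from the same libraries by those labels. All of them were genes with an emu or alligator value. The separation of the layers in these lists follows from their choice and is no check of the labels. The dermis list summed to 24408 to 67422 TPM in dermis, 359 to 1142 TPM in scale epidermis, 908 to 1450 TPM in feather epidermis and 633 to 4175 TPM in claw epidermis, where claw placode replicate 2 held the highest value. Without that library the selection gave 50 genes.

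The most abundant of the genes in any epidermis library was ENSGALG00000018947. It stood at 3384 and 2742 TPM in scutate morphogenesis and at 1706 and 1752 TPM in reticulate morphogenesis, against 433 and 1101 TPM in scutate placode and 1452 and 887 TPM in reticulate placode. Feather placode libraries were tightly grouped at 42.1 to 42.6 TPM, feather morphogenesis libraries ran from 458 to 649 TPM and claw libraries from 559 to 988 TPM. All 4 scale morphogenesis libraries were above every feather and claw library, whereas scutate placode replicate 1 was below all 4 claw libraries. Scutate was above reticulate in morphogenesis without overlap, by 0.82 on the log2 scale, and the 2 scales overlapped at the placode stage. In dermis the gene stayed at 0.0848 to 34.2 TPM, with the highest values in claw.

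Several genes were higher in morphogenesis of both scale types than in feather and claw. ENSGALG00000012112 measured 992 and 1623 TPM in reticulate and 713 and 456 TPM in scutate morphogenesis, 511 and 413 TPM in reticulate placode and 152.3 and 217 TPM in scutate placode. Its claw libraries ran from 244 to 332 TPM and its feather libraries from 165 to 233 TPM. Reticulate placode and all morphogenesis scale libraries were above every feather and claw library, and the scutate placode libraries were not. Its dermis was nearly flat at 166 to 243 TPM.

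ENSGALG00000010364 had a similar order of groups at a lower level. It measured 98.7 and 121.9 TPM in reticulate morphogenesis, 61.1 and 41.9 TPM in scutate morphogenesis, 47 and 30.7 TPM in reticulate placode and 4.02 and 5.46 TPM in scutate placode, against 13.9 to 28 TPM in claw and 0.901 to 3.29 TPM in feather. Again the scutate placode alone among the scale groups lay below claw. ENSGALG00000012390 measured 182 and 242 TPM in reticulate and 125.7 and 143 TPM in scutate morphogenesis, 125 and 126.3 TPM in reticulate placode and 28.4 and 57.3 TPM in scutate placode, with 8.66 to 71.9 TPM in feather and 5.8 to 23.4 TPM in claw. It was of the pattern lowest in claw, and feather morphogenesis was its nearest group.

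Of the genes that peaked in scutate morphogenesis, ENSGALG00000019803 stood at 409 and 306 TPM there and 304 and 305 TPM in reticulate morphogenesis, above 150.2 to 179.7 TPM in claw and 109.9 to 145 TPM in feather morphogenesis. ENSGALG00000000769 stood at 259 and 217 TPM in scutate and 201 and 203 TPM in reticulate morphogenesis, with 200.4 and 180.3 TPM in reticulate placode and 156 to 192 TPM in claw. For both of these genes the 2 scale types were close in morphogenesis. ENSGALG00000009719 was different: it measured 221 and 116.1 TPM in scutate morphogenesis and 46.3 and 55.7 TPM in reticulate morphogenesis, and reticulate stood below both claw morphogenesis libraries at 77 and 99.5 TPM.

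The sharpest separation of the scale types was in genes shared by reticulate scale and claw. ENSGALG00000012120 measured 387 and 263 TPM in reticulate placode and 360.3 and 355 TPM in reticulate morphogenesis, and 492 and 146 TPM and 290.2 and 229.6 TPM in claw placode and claw morphogenesis. In scutate it measured 0 and 1.11 TPM and 0.207 and 0.488 TPM, and in the 8 feather libraries 0 to 0.182 TPM. Reticulate and claw overlapped with each other, and neither overlapped with scutate or feather.

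ENSGALG00000023155 measured 887 and 480.4 TPM in reticulate placode and 1123 and 908 TPM in reticulate morphogenesis, 60.5 and 85.8 TPM in claw placode and 338 and 166 TPM in claw morphogenesis. Scutate libraries ran from 0 to 3.4 TPM and feather libraries from 0 to 3.94 TPM. Every reticulate library was above every claw library, and every claw library above every scutate and feather library. ENSGALG00000020485 was shared by reticulate and claw in morphogenesis, at 42.5 and 218 TPM in reticulate and 51.4 and 37.5 TPM in claw. Scutate morphogenesis gave 5.64 and 0.164 TPM, all placode libraries gave 0 to 6.53 TPM, and the 2 reticulate embryos differed widely, with the lower one in the range of claw.

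Between the scales in morphogenesis, both of stage 40, 10 of the 51 genes were at least 2-fold higher in reticulate with no overlap of libraries, where 2.72% of 11181 genes are. The difference was 8.60 for ENSGALG00000023155, 8.06 for ENSGALG00000012120 and 5.13 for ENSGALG00000020485 on the log2 scale, and 1.10 to 2.74 for the other 7, ENSGALG00000005467, ENSGALG00000005848, ENSGALG00000007917, ENSGALG00000010364, ENSGALG00000012112, ENSGALG00000015078 and ENSGALG00000019615. In the other direction 3 genes were lower in reticulate, where 2.3% of genes are: ENSGALG00000017722 (-1.93), ENSGALG00000009719 (-1.64) and ENSGALG00000011274 (-1.13). The selection read these same groups, so the counts are given without a test. ENSGALG00000015078 shows the first direction at both stages, with 64 and 70 TPM and 40.6 and 53.4 TPM in reticulate against 17.5 and 20.3 TPM and 6.25 and 11.5 TPM in scutate. Its feather libraries overlapped with scutate, at 15.5 to 22.5 TPM in placode and 5.67 to 9.25 TPM in morphogenesis.

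**Figure D3:**
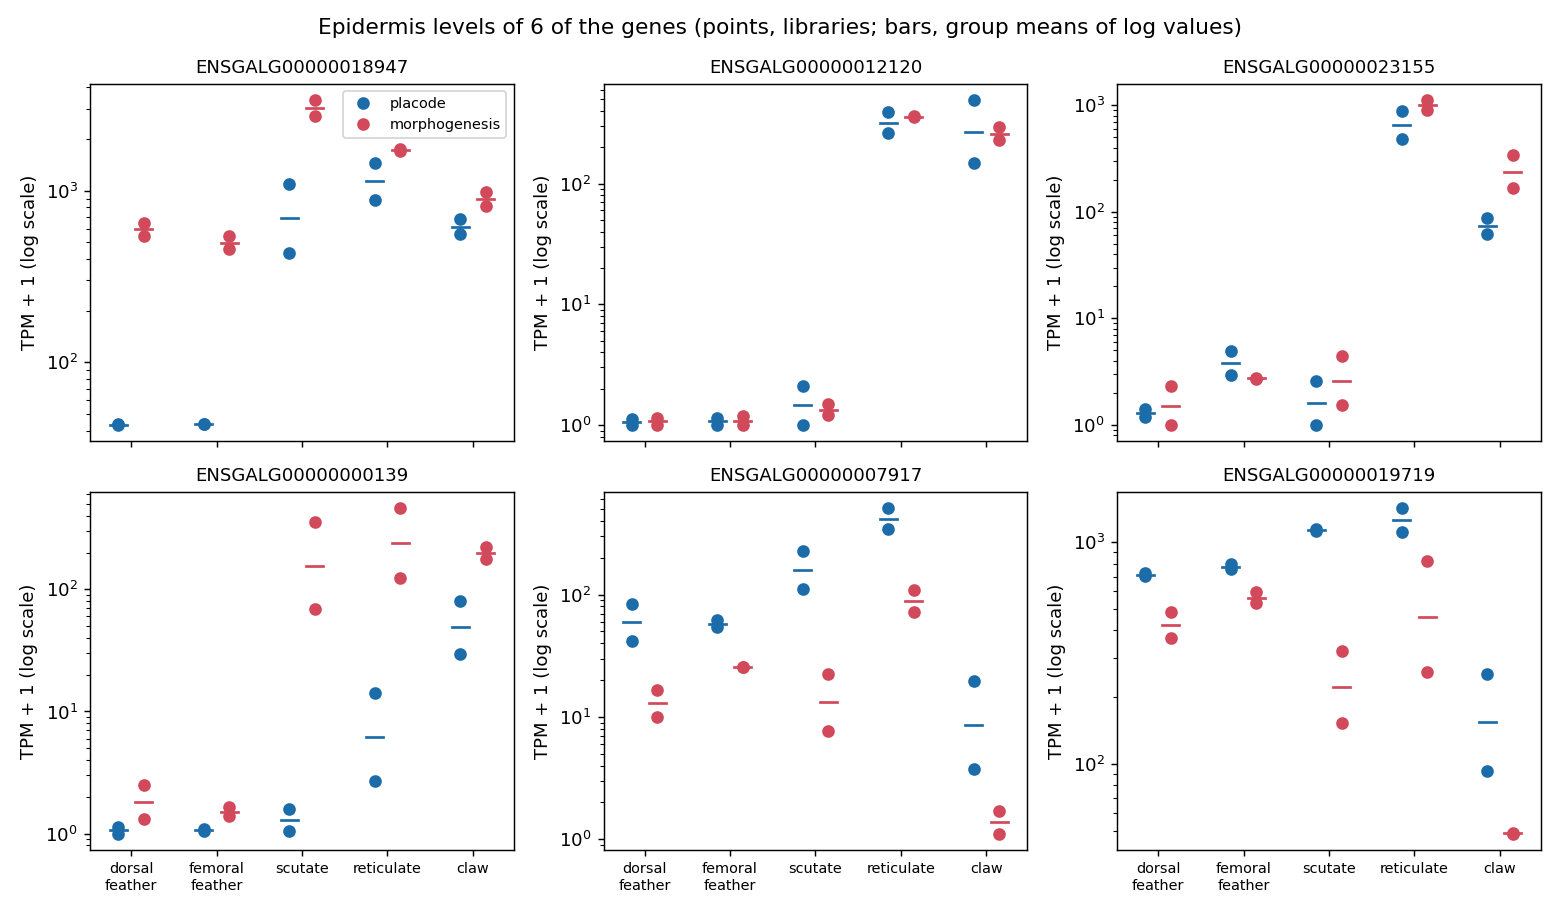
Epidermis level of 6 of the genes by appendage, as TPM + 1 on a logarithmic axis, with points for libraries and bars for the group mean of log values. The genes at upper centre and upper right are near the floor in scutate and feather and far above it in reticulate and claw, the gene at lower left is high in morphogenesis of scale and claw, and the last 2 are lowest in claw.

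From placode to morphogenesis, 10 of 49 genes were at least 2-fold higher in both scale types without overlap, where 1.99% of 10910 genes are, and 6 were lower, where 2.48% are. The higher genes were ENSGALG00000000139, ENSGALG00000000984, ENSGALG00000000994, ENSGALG00000004476, ENSGALG00000004747, ENSGALG00000005849, ENSGALG00000009374, ENSGALG00000010364, ENSGALG00000012112 and ENSGALG00000019803. The lower genes were ENSGALG00000007917, ENSGALG00000015307, ENSGALG00000015820, ENSGALG00000017136, ENSGALG00000019719 and ENSGALG00000024033. Both counts describe the groups used for the selection, and the stages differ in age by different amounts in the 2 scales.

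ENSGALG00000000139 was close to 0 in young scutate epidermis and in feathers. It measured 0.0448 and 0.599 TPM in scutate placode and 355 and 67.8 TPM in scutate morphogenesis, 13.2 and 1.7 TPM in reticulate placode and 124 and 459.8 TPM in reticulate morphogenesis. Claw gave 28.5 and 79.7 TPM in placode and 177 and 222 TPM in morphogenesis, and feather 0 to 1.48 TPM in 8 libraries. The stage difference was 6.92 (log2) in scutate, 5.28 in reticulate and 2.03 in claw.

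ENSGALG00000004747 measured 0.697 and 8.74 TPM in scutate placode and 438 and 267 TPM in scutate morphogenesis, 93.7 and 19 TPM in reticulate placode and 270.4 and 736 TPM in reticulate morphogenesis. Claw, at 22.7 and 209 TPM in placode and 501 and 366 TPM in morphogenesis, reached the same level as the scales, and feather went from 0.235 to 0.984 TPM to 6.93 to 18.7 TPM. ENSGALG00000000984 measured 0.554 and 3.64 TPM and 170.2 and 66.6 TPM in scutate at the 2 stages, and 49.4 and 7.11 TPM and 72.3 and 237 TPM in reticulate. Claw morphogenesis at 76.6 and 48 TPM overlapped with the scales, and feather morphogenesis at 9.3 to 18.6 TPM did not.

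ENSGALG00000005849 measured 32 and 43.3 TPM in scutate placode, 611 and 196 TPM in scutate morphogenesis, 229 and 168 TPM in reticulate placode and 416 and 654 TPM in reticulate morphogenesis, with 207 and 367 TPM in claw morphogenesis and 44 to 73.2 TPM in feather. ENSGALG00000004476 measured 0.303 and 4.49 TPM and 104 and 71 TPM in scutate at the 2 stages, 15.1 and 3.72 TPM and 40 and 50.9 TPM in reticulate, and 0.429 to 0.988 TPM in feather placode against 22.3 to 41.4 TPM in feather morphogenesis. In each of the 10 genes the stage difference was larger in scutate, sampled at stages 37 and 40, than in reticulate, sampled at 39 and 40. Of the 10, 5 were also 2-fold higher without overlap in claw and 6 in feather, and none moved the other way by that measure. The matching shares among all genes higher in both scale types were not counted. Over all 51 genes, 11 were higher and 12 lower in claw morphogenesis than in claw placode, where 4.79% and 3.89% of 11400 genes are. For feather the counts were 13 higher and 12 lower of 48, where 3.83% and 4.45% of 12027 genes are. The claw and feather groups also entered the range condition that chose the 51. These counts therefore describe the selection, and their excess over all genes is largely given in advance.

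By the sign of the mean log2 difference, the genes that were lower in scale morphogenesis were mostly lower in every appendage. ENSGALG00000007917 measured 225 and 110.2 TPM in scutate placode and 6.72 and 21.5 TPM in scutate morphogenesis, 339 and 505 TPM in reticulate placode and 107 and 70.7 TPM in reticulate morphogenesis. Feather went from 40.7 to 82.9 TPM to 9.02 to 24.8 TPM, and claw from 18.8 and 2.73 TPM to 0.707 and 0.114 TPM. Its reticulate placode libraries were above all others in epidermis, and the claw libraries below all feather placode libraries.

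ENSGALG00000019719 was abundant in young epidermis of every appendage except claw. It measured 1144 and 1119 TPM in scutate placode, 1112 and 1421 TPM in reticulate placode and 702 to 793 TPM in feather placode, and 254 and 91.9 TPM in claw placode. In morphogenesis the values were 151.5 and 323 TPM in scutate, 819.8 and 258 TPM in reticulate, 370.0 to 597 TPM in feather and 47.7 and 47.5 TPM in claw. ENSGALG00000015307 was lowest in claw as well, with 129 and 65.1 TPM and 133 and 94.5 TPM in scutate and reticulate placode, 24.8 and 27.1 TPM and 68.6 and 33.5 TPM in morphogenesis, 34.6 to 64.1 TPM and 15.6 to 30 TPM in feather at the 2 stages, and 5.68 and 2.52 TPM and 0.257 and 0.455 TPM in claw. In morphogenesis its scutate libraries lay within the feather range, whereas those of ENSGALG00000019719 were below it. Of the 6 genes, 5 were also lower without overlap in claw and 4 in feather. The exception in claw was ENSGALG00000017136, at 25 and 47.3 TPM in placode and 78.1 and 81.4 TPM in morphogenesis. How many of all genes lower in both scale types were also lower in claw or feather was not counted. By a difference of any size without overlap, 7 of the 51 genes went one way in both scale types and the other way in claw, where 4.19% of 12285 genes do. The 51 were chosen for a wide range over groups that include these, so unlike sets are compared.

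Some other abundant genes with a placode peak differed less than 2-fold between the scale types at either stage, and others differed more. ENSGALG00000017722, for example, measured 209 and 150 TPM in scutate placode against 60.6 and 56.8 TPM in reticulate placode. The genes that follow differed less. ENSGALG00000005498 measured 379.8 and 343 TPM in scutate placode and 265 to 343 TPM in feather placode, and its claw morphogenesis was lowest at 48.3 and 37 TPM. ENSGALG00000010400 measured 224 and 254 TPM in reticulate placode, 165 and 165 TPM in scutate placode and 140.2 to 196 TPM in feather placode, against 18.9 to 53.2 TPM in claw. ENSGALG00000008774 measured 207 and 229 TPM in reticulate placode, 178 and 154 TPM in scutate placode, 114.3 to 151.3 TPM in feather placode and 24.3 to 52.2 TPM in claw. In ENSGALG00000010400 and ENSGALG00000008774, claw was the outlying appendage, and scale and feather lay close together.

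The 2 embryos of a scale group differed more in these genes than in most. The median absolute difference was 0.51 (log2) in scutate placode, 0.46 in reticulate placode, 0.53 in scutate morphogenesis and 0.43 in reticulate morphogenesis, against 0.20, 0.20, 0.27 and 0.21 over all genes at 1 TPM or more. A difference of 2-fold or more was found for 29.4% of the genes in scutate placode and 15.7% in each of the other 3 groups, against 5.35%, 4.43%, 5.93% and 5.54% of all genes. The selection asked for a wide range between groups, and whether other genes of equally wide range differ as much was not tested.

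The differences leaned to opposite embryos in the genes of the 2 peak stages. Of the 28 genes that peaked in morphogenesis, 24 were higher in replicate 2 of scutate placode, 24 in replicate 1 of reticulate placode, 25 in replicate 1 of scutate morphogenesis and 18 in replicate 2 of reticulate morphogenesis. Of the 23 genes that peaked at the placode stage, 15, 14, 20 and 18 were higher in the other embryo of the same groups. The peak stage was read from these same libraries, and the genes are not replicates of an embryo. Other genes were not split by peak stage, so the counts are a description only. Over all genes at 1 TPM or more, 53.7% were higher in replicate 2 of scutate placode, 63.5% in replicate 1 of reticulate placode, 66.4% in replicate 2 of scutate morphogenesis and 51.3% in replicate 2 of reticulate morphogenesis. The lean of all genes thus had the direction of the genes that peak in morphogenesis in the reticulate placode group. In the scutate morphogenesis group it had the direction of the genes that peak at the placode stage. Its part in the counts was not tested, and the labels give both embryos of a group the same stage. ENSGALG00000000139 and ENSGALG00000004747, which peak in morphogenesis, stood at 355 and 67.8 TPM and 438 and 267 TPM in the 2 scutate morphogenesis embryos.

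**Figure D4:**
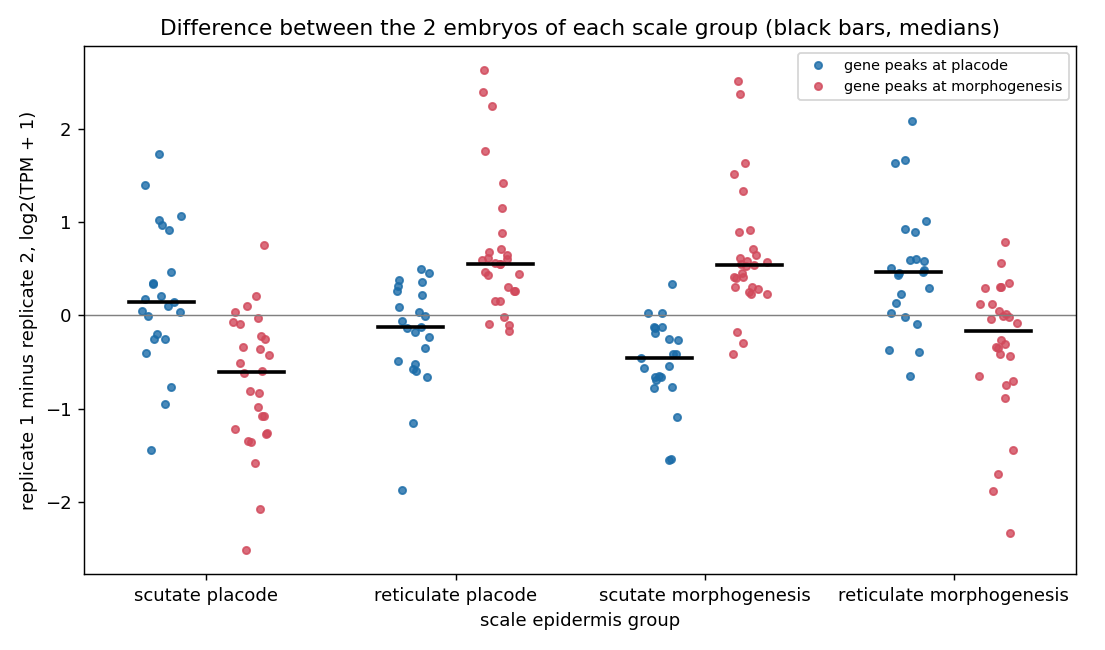
Replicate 1 minus replicate 2 in log2(TPM + 1) for each of the 51 genes in the 4 scale epidermis groups, split by the stage at which the gene peaks, with black bars for medians. In each group the medians of genes that peak at the placode stage and in morphogenesis lie on opposite sides of 0. The peak stage was read from these same libraries.

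A pair of genes differed between the feather embryos in both tracts. ENSGALG00000014304 measured 356 and 38.1 TPM in dorsal and 531 and 48.1 TPM in femoral feather placode, and 289.5 and 51 TPM and 310.2 and 55.5 TPM in dorsal and femoral feather morphogenesis. In each pair the first embryo (17 or 97) was high and the second (14 or 99) low in both tracts, and the claw placode library numbered 99 was also low, at 66.5 TPM against 287 TPM in the other claw placode. Dermis of embryos 17 and 97 was high as well, at 532 to 557 TPM and 338 to 344 TPM. Its 8 scale epidermis libraries ran from 360.4 to 739.8 TPM and overlapped with the high feather embryos.

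ENSGALG00000006295 measured 13.2 and 63.4 TPM in dorsal and 13.6 and 69.6 TPM in femoral feather morphogenesis, low in embryo 97 in both tracts, and its feather placode embryos were alike at 44.3 to 67.7 TPM. It also differed between appendages, with claw lowest at 1.43 to 11.3 TPM. By a 2-fold difference in the same direction in both tracts, 1 gene of 45 was found at the placode stage, where 0.657% of 11570 genes are, and 2 of 48 in morphogenesis, where 0.77% of 11560 genes are. These embryos were not used to choose the genes for a difference between embryos, but they entered the group means.

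In dermis, which took no part in the selection, most of the genes were present. In all 10 dermis libraries 37 of the 51 (72.5%) were at 1 TPM or more, where 82.3% of the 12757 genes measured in chicken epidermis were. In some dermis library 23 (45.1%) reached 50 TPM, where 34.8% did, and ENSGALG00000020485 alone was under 1 TPM throughout. The 51 had to reach 50 TPM in an epidermis group and the 12757 did not have to, so these shares compare unlike sets. In 12 genes (23.5%), where 38.4% of the 12757 are, a dermis library was above every epidermis library: ENSGALG00000003588, ENSGALG00000004011, ENSGALG00000005498, ENSGALG00000005848, ENSGALG00000008774, ENSGALG00000010566, ENSGALG00000011274, ENSGALG00000015820, ENSGALG00000019615, ENSGALG00000021031, ENSGALG00000023303 and ENSGALG00000023973. Within the 4 scale embryos that gave both layers, 19 of 50 genes were at least 2-fold higher in epidermis in all 4, where 5.17% of 12788 genes are, and 1 was at least 2-fold higher in dermis, where 12% are. The epidermal level was used in the selection, so no test was made on it. The 19 included ENSGALG00000018947, ENSGALG00000019719, ENSGALG00000007917, ENSGALG00000012390, ENSGALG00000019803, ENSGALG00000017136 and ENSGALG00000010400, and 10 of the 19 were of the pattern lowest in claw and 9 of the pattern lowest in feather.

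The single gene at least 2-fold higher in dermis in all 4 scale embryos was ENSGALG00000023973. In epidermis it measured 3102 and 2466 TPM in scutate placode and 2153 and 3093 TPM in reticulate placode, 641 and 854 TPM and 1835 and 966 TPM in scutate and reticulate morphogenesis, 639.5 to 1514 TPM in feather and 159 to 1148 TPM in claw. In dermis it measured 8469 TPM in scutate placode, 12483 TPM in reticulate placode, 27571 TPM in scutate morphogenesis and 20578 TPM in reticulate morphogenesis, with 2715 to 3540.5 TPM in feather and 3918 TPM and 13310.0 TPM in claw placode and morphogenesis. Dermis was above epidermis in each of the 4 scale embryos, and it was high in claw morphogenesis too. As a share of its own dermis, epidermis held 36.6% and 3.10% of the gene in scutate placode and morphogenesis and 24.8% and 8.92% in reticulate. The list of 77 dermis genes gave 3.90% and 0.633% in the same scutate embryos and 2.28% and 0.741% in the same reticulate embryos. These shares were below those of the gene in every embryo, and both were higher in the placode embryos. The list was chosen for dermis at least 4 (log2) above epidermis in these libraries, so its low share follows from that choice. The comparison therefore cannot tell what part dermal RNA has in the epidermal level of ENSGALG00000023973, which was not tested.

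Against feather and claw dermis, scale dermis differed in 5 of the 47 genes that were high enough to be tested (10.6%), where 4.42% of 12860 genes did (limma, Benjamini-Hochberg adjusted p below 0.05; 4 feather, 2 claw and 4 scale libraries). Over all genes 315 were higher and 253 lower in scale dermis; after median-of-ratios rescaling the split was 440 higher and 227 lower, and after quantile normalization 458 and 263. The median difference was 0.13 (log2) over the 47 genes, 27 of which were above 0, and -0.10 over all genes. Scale dermis was older than feather and claw dermis at each named stage, so age and appendage cannot be told apart here either. The feather tracts of a stage share an embryo, and with the specimen as a block (correlation 0.704) 55 of all genes and none of the 47 passed (limma; 7 of the 47, or 14.9%, had an unadjusted p below 0.05, against 14.6% of all genes).

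ENSGALG00000011274 was 1.20 higher in scale dermis (log2, SE 0.15, limma adjusted p 0.00795, and 0.0562 with the specimen block). Its dermis measured 1076 TPM and 1519.6 TPM in scutate placode and morphogenesis, 2769 TPM and 2892 TPM in reticulate, 479 to 1063 TPM in feather and 806 TPM and 1293 TPM in claw. At each stage both scale libraries were above the feather and claw libraries. In epidermis the order of the scales was the other way round, with 785 to 1039 TPM in scutate and 376 to 556 TPM in reticulate.

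ENSGALG00000019615 was 2.15 higher (SE 0.28, limma adjusted p 0.0108, and 0.0830 with the block). Its dermis measured 86.6 TPM and 52.2 TPM in scutate, 357 TPM and 195 TPM in reticulate, 48.5 to 115 TPM in feather and 5.09 TPM and 2.99 TPM in claw. Scutate lay within the feather range and claw was far below, and against feather alone the difference was 0.845 with an adjusted p of 0.135. Without the reticulate placode library the limma adjusted p was 0.0614, and with a lane term and pooled scale types 0.0624.

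ENSGALG00000023973 was 1.92 higher (SE 0.32, limma adjusted p 0.0210, and 0.0670 with the block). Its adjusted p was 0.108 without reticulate placode, 0.0926 without scutate morphogenesis, 0.0672 without reticulate morphogenesis and 0.0555 without dorsal feather morphogenesis. Claw morphogenesis, at 13310.0 TPM, was above both scale placode libraries.

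The 2 genes lower in scale dermis were ENSGALG00000009719 and ENSGALG00000017722, both of which peak in scutate epidermis. ENSGALG00000009719 was lower by 1.45 (SE 0.21, limma adjusted p 0.0135, and 0.0846 with the block), at 22.5 TPM and 8.4 TPM in scutate, 6.22 TPM and 4.93 TPM in reticulate, 13 to 19.2 TPM in feather and 74.7 TPM and 67 TPM in claw. Claw was far above the rest. Against feather alone the difference was -0.75 with an adjusted p of 0.0899, and the adjusted p was 0.0768 without reticulate placode and 0.0506 without reticulate morphogenesis.

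ENSGALG00000017722 was lower by 1.33 (SE 0.27, limma adjusted p 0.0382, and 0.180 with the block), at 2.74 TPM and 11.6 TPM in scutate, 2.84 TPM and 5.75 TPM in reticulate, 9.56 to 17.8 TPM in feather and 18.6 TPM and 18.2 TPM in claw. Scutate morphogenesis lay within the feather range. Its call was lost in 13 of 18 alternatives, among them the removal of either feather placode, femoral feather morphogenesis, either reticulate library or claw placode, with an adjusted p of up to 0.180.

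The number of calls over all genes depended on single libraries, running from 70 without reticulate placode to 2552 without scutate placode, and it stayed within 1.5 times of 568 only where a claw library was left out (443 and 428). It was 331 and 340 without the dorsal or femoral feather placode, 200 and 215 without the dorsal or femoral feather morphogenesis, 174 without scutate morphogenesis and 146 without reticulate morphogenesis. Of the 47 genes 1 passed without reticulate placode, 2 without reticulate morphogenesis and 8 without scutate placode.

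**Figure D5:**
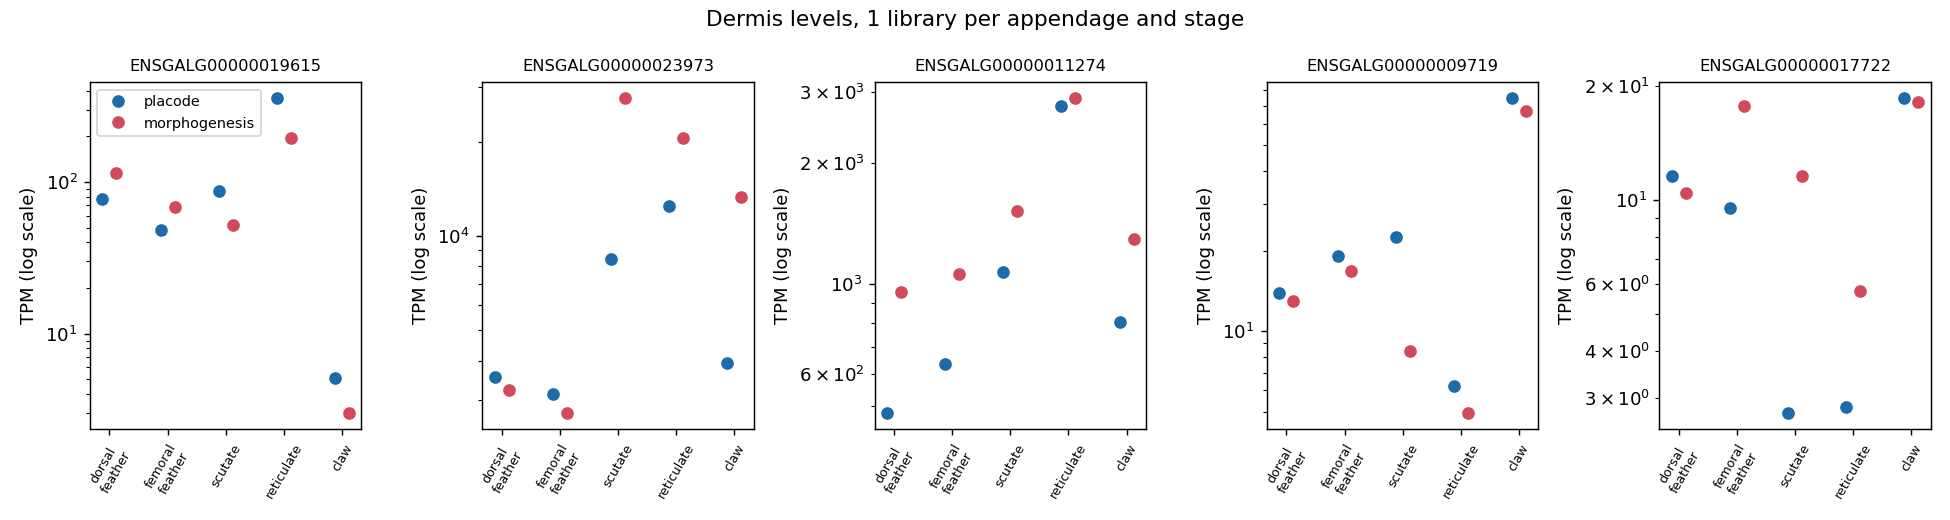
Dermis level in TPM (logarithmic axes) of the 5 genes that passed the test between scale dermis and feather and claw dermis, by appendage, with 1 point for each library. The left 3 genes are highest in a scale library, and in the right 2 genes the reticulate libraries are among the lowest and claw among the highest.

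Between reticulate and scutate dermis, 2 libraries against 2, none of the 47 genes passed, where 0.117% of all genes did (limma; 8 of the 47 had an unadjusted p below 0.05, against 11.4% of all genes). Both scutate libraries came from lane 8 and the reticulate libraries carry no lane number, so lane and scale type cannot be told apart. The placode libraries also differ in age, at stage 37 in scutate and 39 in reticulate, and the fit holds only the named stage. The smallest adjusted p was 0.0658, for ENSGALG00000021877, at 13.1 TPM and 7.03 TPM in reticulate and 56.5 TPM and 28.8 TPM in scutate placode and morphogenesis (log2 difference -1.96, SE 0.30). It passed after median-of-ratios rescaling, after quantile normalization and without femoral feather morphogenesis. Of the 10 genes higher in reticulate than in scutate epidermis in morphogenesis, 9 were tested in dermis. The difference there was above 0 in 7 and below 0 in 2, without passing in any. Of the 47 genes 27 were above 0, and the median over all genes was 0.03. The share of all genes above 0 was not counted. These dermis libraries came from embryos that also gave epidermis libraries, so the layers are not independent. The dermal difference was 1.96 for ENSGALG00000019615 (SE 0.44, limma adjusted p 0.162), whose dermis was higher in reticulate at both stages. ENSGALG00000012120 measured 3.58 TPM and 8.73 TPM in reticulate dermis, 26.9 TPM and 33.8 TPM in scutate dermis and 16.5 to 38 TPM in feather dermis, where feather epidermis was at or below 0.182 TPM (log2 difference of reticulate and scutate dermis -2.22, SE 0.61, limma adjusted p 0.229). ENSGALG00000023155 measured 0.801 TPM and 8.81 TPM in reticulate dermis and 0.913 TPM and 5.19 TPM in scutate dermis.

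Between the stages in dermis, 1 of the 47 genes passed, where 0.0544% of all genes did. An unadjusted limma p below 0.05 was found for 19 of the 47 (40.4%), against 20.4% of all genes. With the specimen block these shares were not counted. ENSGALG00000003588 was lower in morphogenesis by 1.13 (log2, SE 0.13, limma adjusted p 0.0384, and 0.363 with the specimen block), at 19.8 to 105 TPM in the 5 placode libraries and 9.75 to 34.6 TPM in the 5 morphogenesis libraries. It was lower in morphogenesis in all 5 appendages. Its call was lost in 11 of 15 alternatives, among them the removal of any feather library, of either scutate library or of reticulate placode. In scale epidermis it stood at 27.2 to 59 TPM in placode and 44.4 to 79.1 TPM in morphogenesis. ENSGALG00000015820 went in scale epidermis from 166 and 49.2 TPM to 2.06 and 3.81 TPM in scutate and from 9.11 and 21.5 TPM to 1.87 and 3.51 TPM in reticulate, while its dermis measured 10.4 TPM and 281 TPM in scutate and 30.7 TPM and 87.8 TPM in reticulate at the same stages. Over all appendages its dermal difference was 1.57 (SE 0.72, limma adjusted p 0.264), which did not pass.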

How the data were processed

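Gene expression was measured by sequencing of polyadenylated RNA with strand-specific libraries, per the labels' protocols. The authors deposited TPM values in a single table of all libraries. CASAVA, HTSeq 0.5.3p9 and TopHat2 2.0.6 are listed per the submitters' processing notes, which state neither their roles nor their order. No build or annotation was given in the sources used here. Because TPM is relative to the library total, a shift of very abundant genes moves the rest, and reads of near-identical or overlapping genes may have been shared among them.

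Groups were taken from the labels. The series' design text calls replicates biological and titles give specimen numbers. How embryos were sampled is not stated, and p-values refer to the variation among the libraries at hand. The genes, the comparisons and the lists were chosen with earlier results of these data known. Epidermis chose the genes, so their epidermis values carry no test.

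For dermis, log2(TPM + 1) was modelled in limma 3.58.1 (R 4.3.3) with terms for appendage (feather, scutate, reticulate, claw) and stage. Genes at 1 TPM or more in at least 2 of 10 libraries entered, eBayes used trend and robust shrinkage, and p-values were Benjamini-Hochberg adjusted over all 12860 genes at 0.05. Differences on this scale understate the change of low genes. The fit was tried on simulated data with independent libraries. That simulation leaves out the correlation within a specimen, so it does not cover the shared feather embryos. In scale minus other, each library had the same weight, so that feather counted 2 times as much as claw. Both scutate and both claw dermis libraries came from lane 8, both reticulate libraries carry no lane number, and feather dermis was mixed.

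Named genes are, by rule, the 4 of highest level in each peak group, the 8 of widest range, those called between appendages in dermis and those nearest a threshold. The rest were named after their values were seen. Of the table's identifiers 0 matched the reference, so the fixed lists of named genes (cornification, keratins, desmosomes, limb identity, signalling, cell types) were not applied. The planned epidermis fits were to serve those lists and were not run. The lists of 77 dermis and 45 epidermis genes ask for a mean difference between layers of 4 or more (log2) and 100 TPM, and were chosen after seeing the data. Alternatives were another pseudocount (0.1), no filter, 2 rescalings, a specimen block, a lane term, feather alone, averaged feather tracts and leaving out each library. The lane term set lane 8 against all other libraries, those without a lane number included. That fit also pooled the scale types in a single term, so its change from the main fit is not of lane alone. Comparisons of epidermis by fold ask for 2-fold in mean log2(TPM + 1) and no overlap, among genes at 1 TPM or more in at least 2 libraries.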

Additional observations from a re-analysis of the deposited data

Results flagged for a closer look

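In 7 genes the stage difference in claw epidermis was opposite to that in both scale types, with no overlap between the libraries of the 2 stages in any of the 3 appendages, where 4.19% of 12285 genes do so (13.7% of the 51). The 51 genes had to span a log2 range of at least 2 over groups that include these, and the 12285 did not. The shares therefore compare unlike sets. The difference between appendages was not tested. On the log2(TPM + 1) scale, morphogenesis minus placode, ENSGALG00000005467 differed by 1.54 in claw, -1.17 in scutate and -0.74 in reticulate. ENSGALG00000017136 differed by 1.19 in claw, -1.61 in scutate and -1.08 in reticulate, and ENSGALG00000025191 by 0.58, -1.45 and -0.85 in the same order. The others were lower in claw morphogenesis. ENSGALG00000003588 differed by -1.46 in claw, 0.87 in scutate and 0.40 in reticulate. ENSGALG00000004864 differed by -0.45 in claw, 1.74 in scutate and 0.80 in reticulate. ENSGALG00000000994 differed by -0.28 in claw, 2.17 in scutate and 1.14 in reticulate, and ENSGALG00000019803 by -0.18, 2.07 and 1.01.

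ENSGALG00000005467 measured 0.214 and 1.53 TPM in claw placode and 4.65 and 3.63 TPM in claw morphogenesis, both low beside 34.8 to 81.9 TPM in reticulate. ENSGALG00000003588 measured 27.8 and 26.5 TPM and 9.03 and 9.35 TPM in claw at the 2 stages, the lowest of its 20 epidermis libraries being in claw morphogenesis. The claw differences of ENSGALG00000000994 and ENSGALG00000019803 were small, at 35.9 and 38.2 TPM and 30.4 and 30.2 TPM for the first and 179.7 and 177 TPM and 150.2 and 165 TPM for the second. Claw placode replicate 2 had the highest sum of the 77 dermis genes in epidermis (4175 TPM), and its part in these differences was not tested.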

How the results depend on the processing

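The 51 genes were 0.851% of the 5995 genes with empty emu and alligator columns. The share was 1.35% (81 genes) at a level of 25 TPM and 0.550% (33) at 100 TPM, and 1.90% at a log2 range of 1 and 0.50% (30) at a range of 3. It stayed within 1.5 times of 51 with a pseudocount of 0.1 (52), after rescaling (46), and without each library (50 to 64). In dermis, scale against feather and claw gave 568 calls. These were 55 with the specimen as a replicate block, 312 with a lane term and pooled scale types, 156 with the feather tracts averaged and 70 to 2552 without each library. The calls among the 47 genes were 0, 3, 3 and 1 to 8 under the same alternatives, against 5. Reticulate against scutate gave 15 calls. These were 27 with no filter, 25 after median-of-ratios rescaling, 26 after quantile normalization, 2 with the block and 0 to 24 without each library, and 1 of the 47 genes was called after either rescaling (0 to 1 without each library). Morphogenesis against placode gave 7 calls. These were 1 with no filter, 3 after quantile normalization, 1 with the block and 1 to 33 without each library, and the 1 gene called was lost in the first 3 of these and after median-of-ratios rescaling, leaving 0 (0 to 1 without each library). The causes of these changes were not tested. Leaving out a library also leaves fewer libraries in a fit, and the part of that was not tested either. Rescaling moved the median over all genes in scale minus other from -0.10 to -0.01 (median of ratios) and -0.04 (quantile), on the log2 scale. None of the 6 genes called in dermis changed direction in any alternative run. ENSGALG00000011274 kept its call in 17 of 18 alternatives (adjusted p 0.00565 to 0.0562), ENSGALG00000009719 in 14 (0.00578 to 0.0899), ENSGALG00000019615 in 14 (0.00752 to 0.135), ENSGALG00000023973 in 12 (0.0121 to 0.108) and ENSGALG00000017722 in 5 (0.0330 to 0.180). ENSGALG00000003588 kept it in 4 of 15 (0.0291 to 0.363), all in limma.

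With 1 dermis library per appendage and stage, and 2 embryos per epidermis group, spread is estimated from few animals. TPM keeps no depth, so the counting error and detection floor of low values are unknown. The 3 epidermis comparisons that had been set for lists of named genes were not fitted, so neither they nor their alternatives (pseudocount, filter, rescaling, leaving out a library) have values.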
